A study of Arabidopsis thaliana with 4 samples.

Results

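The 66 probe sets described here read 22 cytochrome P450 genes and 44 UDP-glycosyltransferase (UGT) genes of Arabidopsis thaliana, 1 probe set a gene, out of 13355 genes that have a probe set of their own among the 22746 non-control probe sets of the Affymetrix ATH1 array. They were taken by symbol alone: UGT and a digit, or CYP, digits, a letter and digits. UGT74B1, UGT78D1 and UGT78D2 were set aside by name, and CYP71B30P, whose symbol ends in a letter, did not match. A total of 283 genes of the reference annotation carry a symbol of either form, so most members of both families were not analysed here. Whole seedlings 2 weeks old were used, raised on half-strength MS medium (2% sucrose, 22 °C) under a day of 16 h light and 8 h dark with a light intensity of 100 µmol m-2 s-1. The 4 arrays, 1 per genotype, were NO (the Nossen wild type), duf761-1 (the DUF761-1 mutant in Nossen), Col-0 (the Columbia wild type) and OE6 (a transgenic Columbia line that overexpresses DUF761-1). Each altered genotype is 1 line, and the promoter of the transgene and the number of seedlings pooled are not given in the sources used here. DUF761-1 itself was not analysed here, so the labels of the mutant and the overexpressor were not checked against its signal. Because each genotype was measured once, differences between arrays are given as values, with neither error nor p-value, and fewer cells of a type and less RNA per cell cannot be told apart. The comparisons are called the mutant pair (duf761-1 over NO), the overexpressor pair (OE6 over Col-0), the wild-type pair (Col-0 over NO) and the altered-line pair (OE6 over duf761-1). The last pair, like the wild types, sets Columbia over Nossen, and it shares no array with the wild-type pair, while the mutant and wild-type pairs share NO.

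P450s are haem enzymes, mostly of the endoplasmic reticulum membrane, that insert oxygen into small molecules with electrons passed on from NADPH by a reductase. UGTs move a sugar from a UDP-sugar onto a hydroxyl, carboxyl or amino group, which changes the solubility, activity and storage of the acceptor. In plants the families often act in the same routes, among them phenylpropanoids, glucosinolates and hormone inactivation, and both have grown by tandem duplication. CYP71B is a large P450 subfamily of the A-type, the group of plant P450s linked mostly to specialised metabolism. The subfamily letters group genes by protein sequence.

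The deposited MAS5 signals were raised to a floor of 102.3, the 40th percentile over all 4 arrays with controls left out, before log2 ratios were taken. A ratio with 1 array at the floor is a bound, and with both at the floor there is none. Of the 66 members, 31 were above the floor on all 4 arrays, 10 on 1 to 3 of them and 25 on none. The 25 were 8 of 22 P450s (CYP51G2, CYP71B16, CYP71B21, CYP71B25, CYP71B27, CYP71B31, CYP71B38 and CYP79A2, which makes the precursor of benzyl glucosinolate) and 17 of 44 UGTs (UGT71B6, UGT71B8, UGT72E3, UGT73C1, UGT73C2, UGT73C7, UGT73D1, UGT74F1, UGT76D1, UGT76E1, UGT76E2, UGT76E12, UGT78D3, UGT84A1, UGT84B1, UGT84B2 and UGT85A3). Their highest signal on any array was 86.2, and nothing is read from their ratios. Per array, 11, 11, 11 and 13 P450s and 25, 24, 24 and 24 UGTs were above the floor on NO, duf761-1, Col-0 and OE6.

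Signals of the light-harvesting gene LHCB4.1 were 17984 to 20409 and those of the root gene PYK10 were 15882 to 16513 over the 4 arrays, so a marker of green tissue and a marker of root were bright in each sample. Of the root list, 3 of 5 genes are named here, and their summed signal, nearly all of it PYK10, was 16282 to 16998. The dimmer root hair expansins differed between arrays, in opposite directions for the mutant and wild-type pairs and both upwards for the overexpressor and altered-line pairs. EXPA18 was at 426 (NO), 256 (duf761-1), 188 (Col-0) and 289.6 (OE6), with log2 ratios of -0.74 for the mutant pair, 0.62 for the overexpressor pair and -1.18 for the wild-type pair. EXPA7 was at 79.1, 145, 155 and 196 in the same order, with log2 ratios of 0.50 or more for the mutant pair, 0.34 for the overexpressor pair and 0.60 or more for the wild-type pair. For the altered-line pair the ratios were 0.18 for EXPA18 and 0.43 for EXPA7. The part of root content in the results below was not tested, and the seed storage and flower markers listed were not analysed here. The 3′ to 5′ signal ratio of the actin controls, a sign of RNA or probe quality, was 1.66 (NO) and 1.49 (duf761-1) in Nossen but 7.52 (Col-0) and 9.84 (OE6) in Columbia. It thus moves with background, and its part in the background differences below was not tested. For the GAPDH controls it was 1.14 to 1.38 and for ubiquitin 2.58 to 2.72. As a yardstick of noise within arrays, 57 genes with a pair of probe sets above the floor on all arrays gave an SD of the log2 ratio per probe set of 0.29 for the mutant pair, 0.24 for the overexpressor pair, 0.43 for the wild-type pair and 0.40 for the altered-line pair. This leaves out any spread between plants, cultures and labelling reactions.

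**Figure D1:**
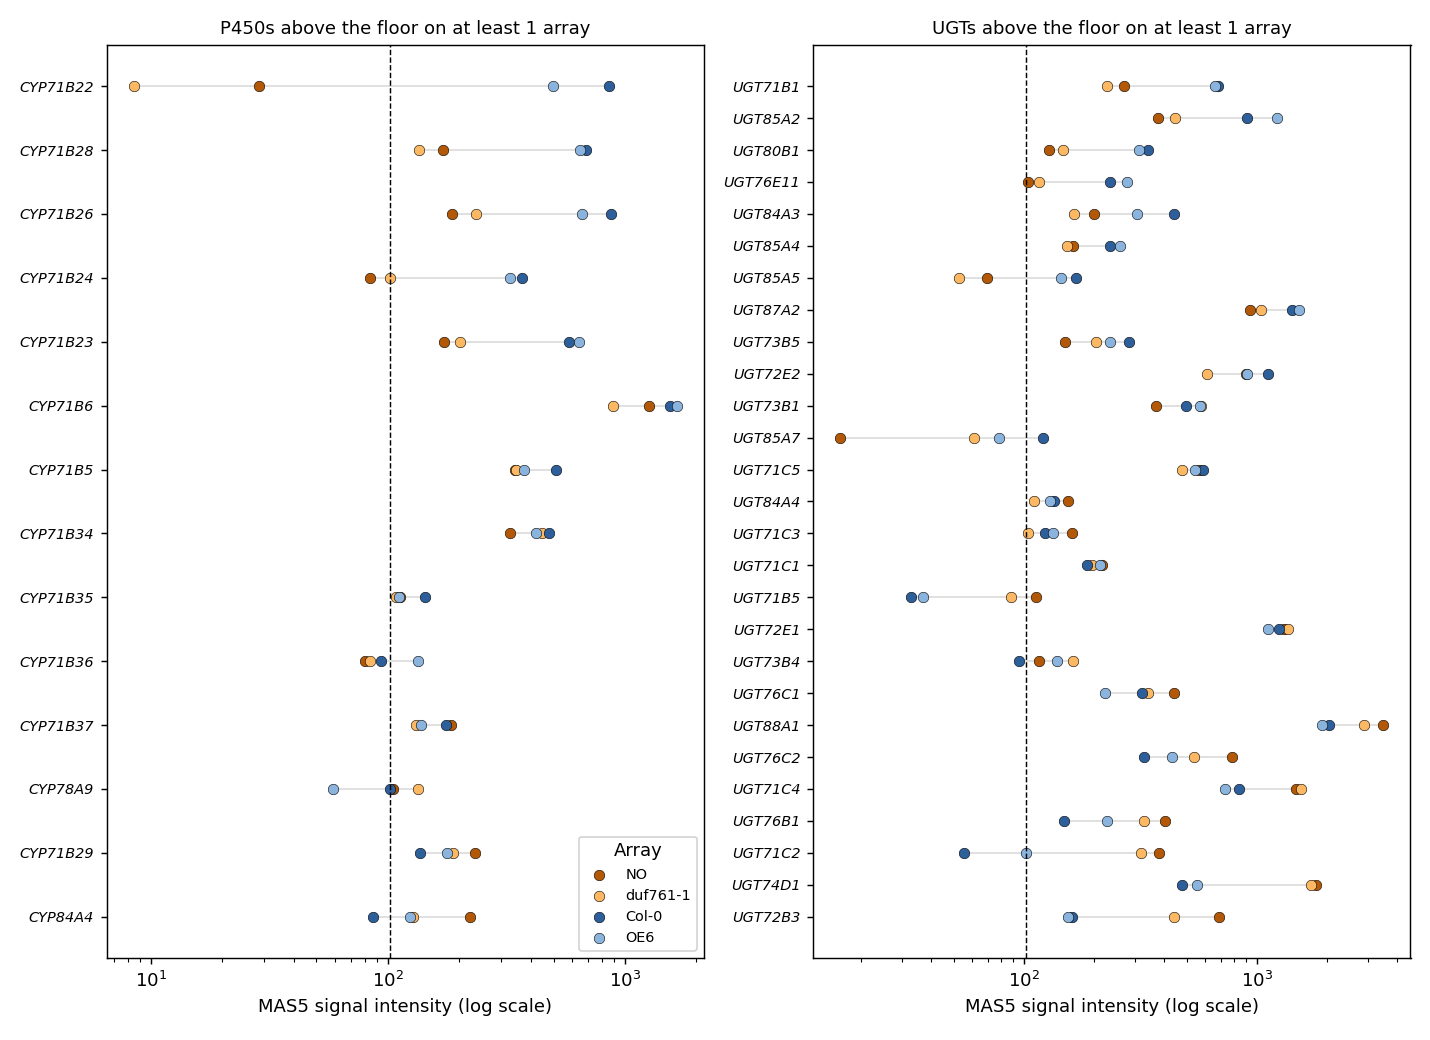
Signal of each P450 (left) and UGT (right) above the floor on at least 1 array, on a log scale, 1 point per array, with the floor of 102.3 as a dashed line and genes ordered by the mean Columbia minus Nossen difference. The Columbia points of CYP71B22, CYP71B28, CYP71B26, CYP71B24 and CYP71B23 lie to the right of both Nossen points, and those of UGT72B3, UGT74D1 and UGT71C2 to the left.

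The widest differences among P450s lay between the backgrounds, in the CYP71B subfamily. Of 18 CYP71B genes, 11 had a ratio for the wild-type pair, with signal raised 2-fold or more on Col-0 in 5 of them (CYP71B22, CYP71B23, CYP71B24, CYP71B26 and CYP71B28) and lowered in 0. In the altered-line pair the same 5 passed 2-fold on the Columbia side. Over all probe sets with 1 gene and a ratio, 9.22% were 2-fold higher for the wild-type pair and 7.99% for the altered-line pair. The CYP71B median log2 ratio was 0.57 for the wild types (range -0.76 to 3.07) and 0.64 for the altered-line pair (range -0.08 to 2.28), where the medians over all probe sets with 1 gene were both 0.05. CYP71B22 and CYP71B24 passed the floor on the Columbia arrays alone, and CYP71B36 on OE6 alone, so their ratios could only be positive. These bounds, 2 for the wild types and 3 for the altered-line pair, raise the medians, and CYP71B22 and CYP71B24 add to the 2-fold counts. Among the genes above the floor on all arrays, altered-line ratios were -0.08 to 0.11 for CYP71B5, CYP71B29, CYP71B34, CYP71B35 and CYP71B37. They were 0.89 to 2.25 for CYP71B6, CYP71B23, CYP71B26 and CYP71B28. The medians are therefore not read as a shift of the whole subfamily.

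CYP71B22 had signals of 28.7 (NO) and 8.49 (duf761-1) in Nossen and 859.7 (Col-0) and 496 (OE6) in Columbia. Both Nossen arrays were below the floor, so Col-0 exceeded NO at least 8.4-fold and OE6 exceeded duf761-1 at least 4.85-fold. Between the Columbia arrays it was lower on OE6, with a log2 ratio of -0.79, the lowest of the P450s in that comparison and within 2-fold. CYP71B26 had signals of 186 (NO) and 236 (duf761-1) in Nossen and 875 (Col-0) and 655 (OE6) in Columbia, 4.69-fold and 2.78-fold higher in the pairs. CYP71B28 had signals of 170.1 (NO) and 136 (duf761-1) in Nossen and 686 (Col-0) and 646 (OE6) in Columbia, 4.03-fold and 4.76-fold higher. In both genes the lower Columbia array lay more than 2-fold above the higher Nossen array. CYP71B23 was at 172 (NO) and 202 (duf761-1) in Nossen and 579 (Col-0) and 641 (OE6) in Columbia, with log2 ratios of 1.75 and 1.67. CYP71B24 was at 84.2 (NO) and 101.7 (duf761-1) in Nossen and 366 (Col-0) and 327 (OE6) in Columbia, with bounds of at least 1.84 and 1.68, both Nossen arrays being under the floor. With the floor raised to the 60th percentile the bounds of CYP71B24 were 0.35 and 0.19, and those of CYP71B22 were 1.58 and 0.79.

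The rest of the CYP71B subfamily differed less. CYP71B6, which converts indole-3-acetonitrile, had the signals 1260.5 (NO) and 891 (duf761-1) in Nossen and 1544 (Col-0) and 1656 (OE6) in Columbia, so both Columbia arrays were higher, by log2 ratios of 0.29 for the wild types and 0.89 for the altered-line pair. CYP71B29 went the other way, with 232 (NO) and 189 (duf761-1) in Nossen and 137 (Col-0) and 178 (OE6) in Columbia, a ratio of -0.76 for the wild types and -0.08 for the other pair. CYP71B34, CYP71B35, CYP71B37 and CYP71B5 had ratios of -0.07 to 0.57 for the wild-type pair and -0.08 to 0.11 for the altered-line pair. CYP71B36 was above the floor on OE6 alone, at 133. Across the subfamily the 4 arrays therefore separated by background for some genes and overlapped for others. The backgrounds did not overlap for 66.3% of all probe sets with 1 gene above the floor on any array. Separation is thus common and is not read as a trait of the subfamily.

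Outside CYP71B, 2 of 4 P450s were above the floor on any array. CYP84A4 takes part in making arabidopyrones, pyrone compounds derived from phenylpropanoids. Its signals were 222 (NO) and 128 (duf761-1) in Nossen and 86.8 (Col-0) and 124 (OE6) in Columbia, highest on NO, with log2 ratios of -0.80 for the mutant pair, -1.12 or lower for the wild-type pair and -0.05 for the altered-line pair. The last pair is close to equal, so the wild-type difference was not seen between the altered lines, although the difference between the pairs was not tested. With spike-in scaling and with the pseudocount the value of CYP84A4 did not reach 2-fold for the wild-type pair (-0.92 and -0.78). CYP78A9, of a subfamily that promotes organ and seed growth, was at 105 (NO) and 134 (duf761-1) in Nossen and 102.1 (Col-0) and 58.8 (OE6) in Columbia, all near or below the floor.

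UGTs split by direction between the backgrounds. Of 27 UGTs with a ratio for the wild-type pair, 5 passed 2-fold upwards and 5 downwards on Col-0, where 9.22% and 5.26% of all probe sets with 1 gene were. For the altered-line pair it was 4 higher and 4 lower of 25, against 7.99% and 5.46%. The UGT median was -0.08 and 0.17 in the pairs, and it changed sign in both with other settings, spanning -0.21 to 0.39 and -0.14 to 0.44.

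UGTs with lower signal on Columbia arrays were led by UGT72B3, UGT74D1 and UGT71C2. UGT72B3 was at 689 (NO) and 441 (duf761-1) in Nossen and 160.4 (Col-0) and 154 (OE6) in Columbia, 4.3-fold lower on Col-0 than on NO and 2.87-fold lower on OE6 than on duf761-1. UGT74D1, which glucosylates auxins, was at 1793 (NO) and 1717 (duf761-1) in Nossen and 479 (Col-0) and 555 (OE6) in Columbia, 3.74-fold and 3.09-fold lower. Arrays of the same background lay close together for this gene, with log2 ratios of -0.06 for the mutant pair and 0.21 for the overexpressor pair. UGT71C2 was at 380.4 (NO) and 318 (duf761-1) in Nossen and 55.1 (Col-0) and 101.9 (OE6) in Columbia, at the floor on both Columbia arrays and at least 3.72-fold and at least 3.11-fold lower. Because it passed the floor on the Nossen arrays alone, it could only be lower. UGT71C4, with 1471 (NO) and 1554 (duf761-1) in Nossen and 835 (Col-0) and 730.0 (OE6) in Columbia, was 2-fold lower in the second pair only (-1.09, and -0.82 for the wild types). When the floor was at the 60th percentile the bound of UGT72B3 did not reach 2-fold for the altered-line pair (-0.62), nor did that of UGT71C2 in either pair, and UGT71C4 did not reach it with spike-in scaling and the pseudocount.

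UGT76B1 and UGT76C2 were lower on Col-0 than on NO by over 2-fold but not on OE6 than on duf761-1. UGT76B1, which glucosylates isoleucic acid, salicylic acid and N-hydroxypipecolic acid in plant immunity, was at 402 (NO) and 327 (duf761-1) in Nossen and 149 (Col-0) and 227 (OE6) in Columbia, with log2 ratios of -1.44 and -0.52. Its log2 ratio for the overexpressor pair, 0.61, was the highest of the UGTs in that comparison. UGT76C2, which attaches glucose to cytokinin nitrogen, was at 779.8 (NO) and 536 (duf761-1) in Nossen and 328 (Col-0) and 432 (OE6) in Columbia, with -1.25 and -0.31. Its neighbour UGT76C1, with the same kind of activity, was at 442 (NO) and 339 (duf761-1) in Nossen and 321 (Col-0) and 223 (OE6) in Columbia, with -0.46 and -0.61. For the 3 genes both Columbia arrays were below both Nossen arrays and NO was highest. UGT76B1 did not reach 2-fold under the 60th percentile floor (a bound of -0.48), nor did UGT76C2 with spike-in scaling (-0.84).

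UGTs with higher signal on Columbia arrays were UGT71B1, UGT85A2, UGT76E11 and UGT80B1, each 2-fold apart in both pairs, and UGT84A3 in the wild types. UGT71B1 was at 270.2 (NO) and 227 (duf761-1) in Nossen and 683 (Col-0) and 664 (OE6) in Columbia, 2.53-fold and 2.92-fold higher. UGT85A2 was at 376 (NO) and 447 (duf761-1) in Nossen and 909.5 (Col-0) and 1222 (OE6) in Columbia, 2.42-fold and 2.73-fold higher. Both stayed beyond 2-fold under each other scaling, floor and pseudocount run. UGT80B1, a sterol glucosyltransferase needed for normal seed coats, was at 128 (NO) and 147 (duf761-1) in Nossen and 342 (Col-0) and 312 (OE6) in Columbia, with log2 ratios of 1.42 and 1.08. UGT76E11, a flavonoid glycosyltransferase, was at 104 (NO) and 117 (duf761-1) in Nossen and 234 (Col-0) and 278 (OE6) in Columbia, with 1.17 and 1.25. UGT84A3, which makes glucose esters of hydroxycinnamates, was at 201 (NO) and 165 (duf761-1) in Nossen and 439 (Col-0) and 305 (OE6) in Columbia, with 1.13 and 0.89. The last 3 are nearer the threshold: for the wild-type pair, values did not reach 2-fold in UGT80B1 under the 60th percentile floor and the pseudocount, in UGT76E11 with quantile normalization and the pseudocount, and in UGT84A3 with median scaling, that floor and the pseudocount, and for the altered-line pair they did not in UGT76E11 with the pseudocount and in UGT80B1 under 5 of 8 other settings.

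**Figure D2:**
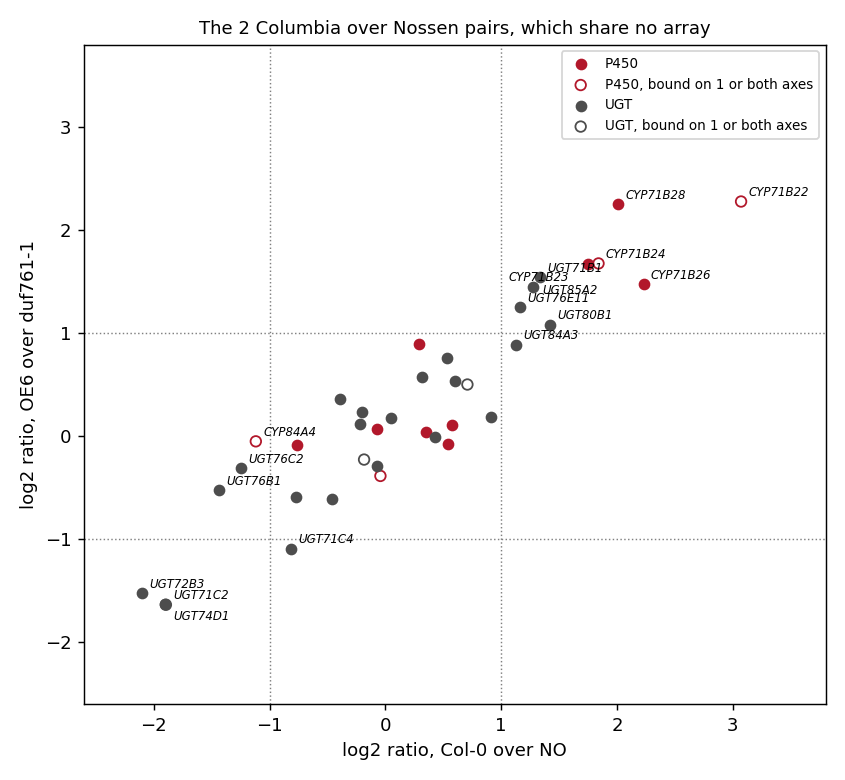
Log2 ratio of each member for the wild-type pair (x axis) and for the altered-line pair (y axis), P450s in red and UGTs in grey, open circles where a ratio is a bound, dotted lines at 2-fold. The 5 CYP71B genes and UGT71B1, UGT85A2, UGT76E11 and UGT80B1 lie beyond 2-fold at the upper right, and UGT72B3, UGT74D1 and UGT71C2 at the lower left.

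Over both families, 16 of 40 members with a ratio were at least 2-fold apart for the wild-type pair (10 higher and 6 lower on Col-0), beside 14.5% of all probe sets with 1 gene, and 13 of 39 for the altered-line pair (9 and 4), beside 13.5%. With arrays scaled on the 18 hybridisation spike-ins the splits were 12 higher and 4 lower, and 12 and 3, where the median of all probe sets moved by 0.37 and 0.23. Members that passed the floor only through a high array add to these counts. Among the 31 members above the floor on all 4 arrays, 12 were 2-fold apart for the wild-type pair (8 higher and 4 lower), beside 13.5% of all probe sets so chosen, and 10 for the altered-line pair, beside 12.1%. Of the 10 members higher on Col-0, 9 were also higher on OE6 than on duf761-1, which is all 9 of the members higher there. Over all probe sets with 1 gene, 60.2% of the higher calls of the wild types and 70.6% of those of the other pair were shared. Of the 6 members lower on Col-0 and the 4 lower on OE6, 3 were shared, beside 66.7% and 65.3% over all. Calls in both pairs made up 5.41% (higher), 3.42% (lower) and 8.84% (either) of all probe sets. None of the 66 was 2-fold apart in opposite directions, as was 1 probe set of all with 1 gene. Both Columbia arrays lay above both Nossen arrays for 17 of the 41 members above the floor on any array and below for 12, beside 36.4% and 29.9% of all such probe sets. The nearest arrays of the backgrounds were at least 2-fold apart for 9 and 3, beside 4.85% and 2.95% (7.80% either way). The probes of the array follow Columbia sequence, and from signals alone a difference in transcript level and a Nossen sequence difference under the probes cannot be told apart.

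Set side by side, the 2-fold P450s lay mostly on the Columbia side and the 2-fold UGTs on both sides. For the wild-type pair, 6 of 13 P450s with a ratio (5 higher and 1 lower) and 10 of 27 UGTs (5 and 5) were 2-fold apart, beside 14.5% of all probe sets with 1 gene, and the medians were 0.54 and -0.08. For the altered-line pair it was 5 of 14 P450s, all higher, and 8 of 25 UGTs (4 and 4), beside 13.5%, with medians of 0.25 and 0.17. The P450 median stayed above 0 in both pairs under each setting run, while the UGT median did not. With the main floor the P450 medians hold 4 bounds in each pair, whose sign was fixed by the floor. Nothing is therefore read from this contrast between the families. Above the floor on all 4 arrays, 3 of 9 P450s and 9 of 22 UGTs were 2-fold apart for the wild-type pair, beside 13.5% of all probe sets so chosen. All the P450s with a ratio were A-type and all but CYP84A4 and CYP78A9 were CYP71B, so the P450 values come mostly from 1 subfamily. The 1 lower P450 for the wild-type pair was CYP84A4, at the floor on Col-0, so it could only be lower there. Of the 5 higher P450s in each pair, CYP71B22 and CYP71B24 could only be higher. Only CYP71B23, CYP71B26 and CYP71B28, above the floor on all 4 arrays, could have gone either way. Among the lower UGTs, UGT71C2 was above the floor on Nossen arrays alone and could only be lower. For the altered-line pair the medians of CYP71B (0.64) and of all P450s (0.25) both hold 3 bounds that could only be positive. These are CYP71B22, CYP71B24 and CYP71B36, above the floor on Columbia arrays alone, so nothing is read from the gap between the medians. Members of a family share the same 4 RNA samples. The difference between the families was not tested.

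**Figure D3:**
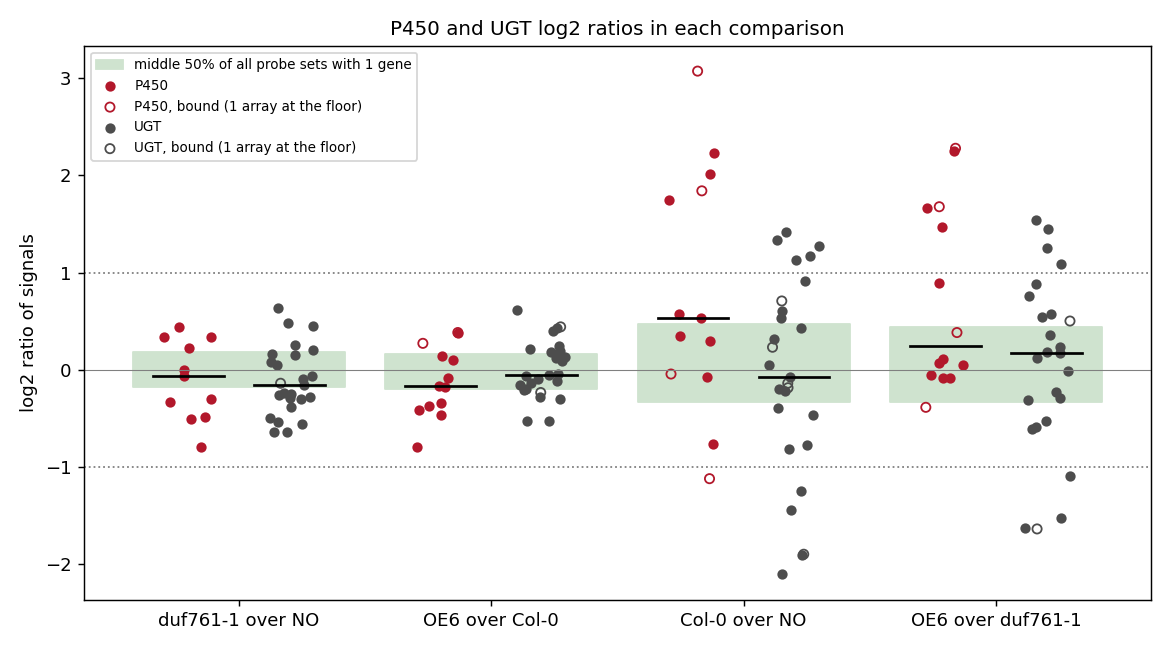
Log2 ratios of the P450s (red) and UGTs (grey) in the 4 comparisons, 1 point per gene with a ratio, open where it is a bound, bars at the family medians, green bands over the middle 50% of all probe sets with 1 gene, dotted lines at 2-fold. No point passes 2-fold for the mutant pair or the overexpressor pair, and 16 do for the wild-type pair.

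Within UGT subfamilies the direction by background was shared in some and mixed in others. In UGT85A, 4 of 5 genes had a ratio for the wild-type pair and the 4 were positive, with UGT85A2 the furthest, UGT85A5 at 0.71 or more, UGT85A4 at 0.53 and UGT85A7 at 0.23 or more, and the 3 with a ratio for the altered-line pair were positive too. UGT85A7 passed the floor on Col-0 alone and UGT85A5 on the Columbia arrays alone, so their bounds could only be positive. Only UGT85A2 and UGT85A4 could have gone either way. Over all probe sets with 1 gene, 4286 of 7894 ratios were positive for the wild-type pair and 4165 of 7759 for the altered-line pair. In UGT71C the ratios were -1.89 to 0.05 over 5 genes, 4 of them negative, for the wild-type pair, but 3 were positive and 2 negative for the altered-line pair, with medians of -0.39 and 0.12. UGT71C2, which sets the low end, passed the floor on the Nossen arrays alone, so its bounds could only be negative. For the wild-type pair UGT71C5, an abscisic acid glucosyltransferase, was nearly level at 0.05. UGT71C3, which acts on methyl salicylate, had -0.39 and 0.36, and UGT71C1 -0.22 and 0.12, both opposite in sign between the pairs. In UGT71B, UGT71B1 was higher on Columbia arrays, while UGT71B5 passed the floor on NO alone, at 113. In UGT73B the pairs gave different values for 2 of 3 genes: UGT73B5 had 0.91 for the wild-type pair and 0.19 for the altered-line pair, and UGT73B1 had 0.43 and -0.01, while UGT73B4 had -0.18 or lower and -0.23. Among single members, UGT87A2, known for an effect on flowering time, was at 938 (NO) and 1041 (duf761-1) in Nossen and 1422 (Col-0) and 1512 (OE6) in Columbia, higher on both Columbia arrays by 0.60 and 0.54, and UGT88A1, at 3494 (NO) and 2875 (duf761-1) in Nossen and 2047 (Col-0) and 1913 (OE6) in Columbia, was lower by log2 ratios of -0.77 and -0.59.

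Neighbours on the chromosome differed in some runs and went the same way in others. In the protein-coding gene order of the reference table (assembly TAIR10.1), 43 of the 64 members found there lie in 16 runs of members of the same family with at most 2 genes between one member and the next. In 9 of the runs at least 2 members were above the floor on some array. For the wild-type pair, 6 of the 9 held 1 member at least 2-fold apart, 2 held none, and 1 held 3. The 9 runs held 24 members above the floor on at least 1 array. Over all probe sets with 1 gene, 14.5% were 2-fold apart, a share of probe sets that cannot be set against counts of runs. A single 2-fold member does not mean that neighbours went different ways. UGT76C2 and UGT76C1, for example, were both lower on Col-0, with -1.25 and -0.46. Whether neighbouring genes in general differ as often was not tested. The run with 3 was CYP71B21 to CYP71B24 (AT3G26200 is CYP71B22, AT3G26210 CYP71B23 and AT3G26230 CYP71B24), where the 3 are the members above the floor. CYP71B22 and CYP71B24 passed the floor only on the Columbia arrays, which partly fixes that count, and CYP71B23 alone was above it on all 4. In the next run, CYP71B26 (AT3G26290) was 4.69-fold higher on Col-0, and the next members, CYP71B34 and CYP71B35, had log2 ratios of 0.54 and 0.35. CYP71B28 (AT1G13090) and CYP71B29 (AT1G13100) are adjacent, with ratios of 2.01 and -0.76. UGT71C2 and UGT71C1 are adjacent as well, with -1.89 or lower and -0.22, as are UGT84A3 and UGT84A4, with 1.13 and -0.20. Probes of such close paralogs may share signal, which makes their values uncertain as separate measurements, and 0 of the 66 probe sets carry a suffix that marks cross-hybridisation.

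**Figure D4:**
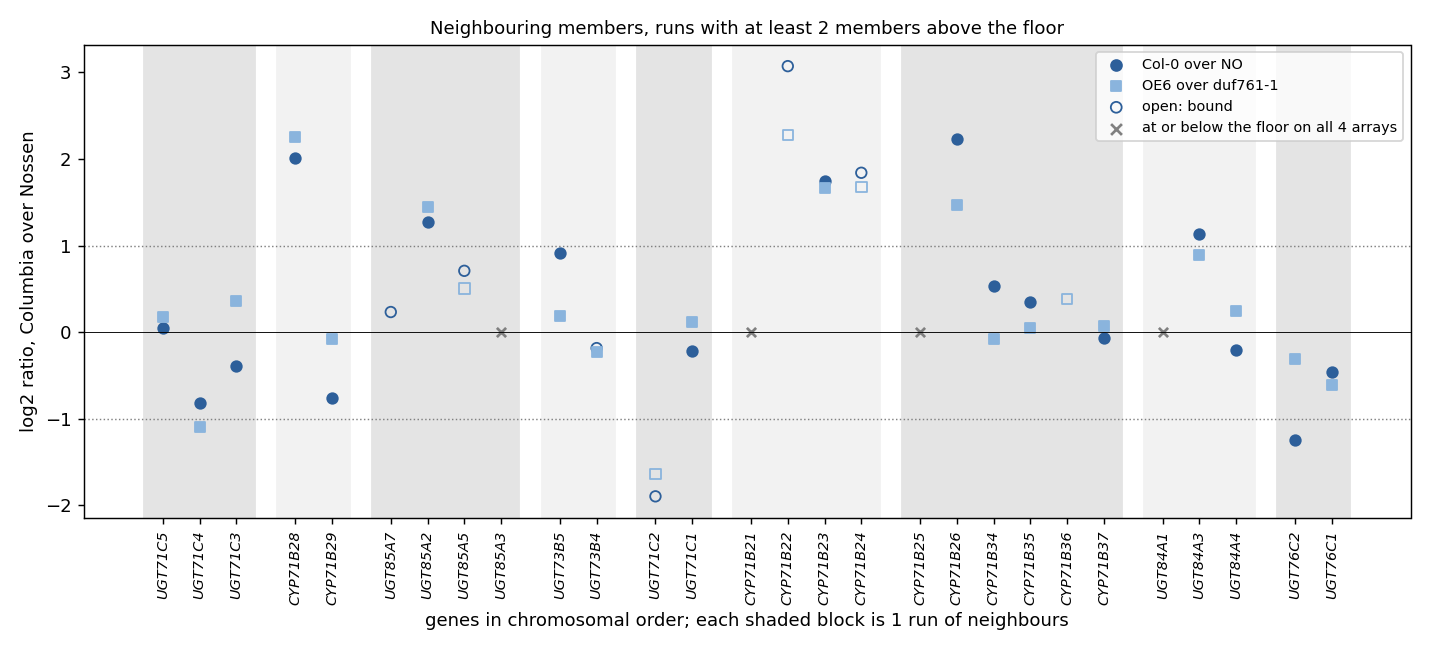
Log2 ratios for the wild-type pair (circles) and the altered-line pair (squares) of neighbouring genes in chromosomal order, 1 shaded block per run with at least 2 members above the floor, open symbols for bounds and crosses for genes at or below the floor on all 4 arrays. CYP71B22, CYP71B23 and CYP71B24 lie together above 2-fold, while CYP71B28 and CYP71B29 lie on either side of 0.

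For the mutant and the overexpressor, 0 of 36 members with a ratio passed 2-fold for the mutant pair and 0 of 38 for the overexpressor pair. The shares over all probe sets with 1 gene were 0.960% (0.717% higher, 0.243% lower) and 0.992% (0.489% higher, 0.502% lower), so a count of 0 is near the background and is not a result about these members. The count stayed 0 in both comparisons under each setting that kept a floor or pseudocount. P450 log2 ratios spanned -0.80 to 0.44 for the mutant pair and -0.79 to 0.38 for the overexpressor pair, and UGT ratios -0.64 to 0.64 and -0.53 to 0.61. Median sizes without sign were 0.29 and 0.21 over the members, beside 0.18 in both comparisons over all probe sets with 1 gene. The noise yardstick of 0.29 and 0.24 is an SD and not a median size, so these medians are not set against it. Medians with sign were -0.07 for P450s and -0.15 for UGTs for the mutant pair, and -0.16 and -0.05 for the overexpressor pair, beside -0.005 and -0.02 over all.

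The UGT73B genes, of a subfamily linked to stress and pathogen responses, had the 3 highest UGT ratios for the mutant pair. UGT73B1 was at 369 (NO) and 575 (duf761-1) in Nossen and 498 (Col-0) and 570.1 (OE6) in Columbia, a log2 ratio of 0.64, with NO the lowest of the 4 arrays. UGT73B4 was at 116 (NO) and 163 (duf761-1) in Nossen and 95.6 (Col-0) and 139 (OE6) in Columbia, a ratio of 0.48, and UGT73B5 at 150.2 (NO) and 205 (duf761-1) in Nossen and 283 (Col-0) and 233 (OE6) in Columbia, a ratio of 0.45. For the overexpressor pair the 3 genes had ratios of both signs, with 0.20 for UGT73B1, 0.44 or more for UGT73B4 and -0.28 for UGT73B5. After the UGT73B genes, UGT85A2 (0.25) and UGT80B1 (0.20) were the next highest UGTs for the mutant pair. Among P450s the highest for the mutant pair were CYP71B34 (0.44), CYP78A9 (0.34), CYP71B26 (0.34), CYP71B23 (0.23) and CYP71B5 (0.002).

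The lowest ratios for the mutant pair came from several subfamilies. After CYP84A4, the P450s were CYP71B6 (-0.50), CYP71B37 (-0.48), CYP71B28 (-0.33) and CYP71B29 (-0.30). The UGTs were UGT72B3 (-0.64), UGT71C3 (-0.63), UGT72E2 (-0.56), UGT76C2 (-0.54) and UGT84A4 (-0.49). UGT71C3 had signals of 161 (NO) and 104 (duf761-1) in Nossen and 123 (Col-0) and 133 (OE6) in Columbia, and UGT84A4, which makes hydroxycinnamate glucose esters, had 154 (NO) and 109.9 (duf761-1) in Nossen and 134 (Col-0) and 129.8 (OE6) in Columbia. In both, NO was the highest array and duf761-1 the lowest, as it was not in UGT72B3 or UGT76C2, where the Columbia arrays were lower still. Over the 31 members above the floor on all arrays, NO was the highest array for 11 and the lowest for 10, and duf761-1 the highest for 3 and the lowest for 11. The same counts were not made over all probe sets, so these are not read as a trait of the members. A ratio against NO carries the state of 1 NO array, and so do the wild-type ratios, which share it.

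For the overexpressor pair the furthest UGTs were UGT76B1, UGT73B4, UGT85A2 (0.43), UGT76C2 (0.40) and UGT76E11 (0.25) on the higher side, and UGT84A3 (-0.53), UGT76C1 (-0.52), UGT72E2 (-0.30), UGT73B5 and UGT85A7 (-0.23 or lower) on the lower side. The neighbours UGT76C1 and UGT76C2 went in opposite directions here and in the same direction for the mutant pair (-0.38 and -0.54). Among P450s the lower side held CYP71B22, CYP71B5 (-0.46), CYP71B26 (-0.42), CYP71B35 (-0.37) and CYP71B37 (-0.34), and the higher side CYP71B36 (0.38 or more), CYP71B29 (0.38), CYP84A4 (0.27 or more), CYP71B23 (0.15) and CYP71B6 (0.10). None of these values reached 2-fold, and those of UGT73B4, UGT85A7, CYP71B36 and CYP84A4 are bounds.

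By role, 18 lists were set up and 9 of them held a member, so the enzymes listed for brassinosteroids, gibberellins, jasmonate, flavonoids, sterols, carotenoids, terpenoids, cutin and wax, and iron-linked coumarins were not analysed here. The phenylpropanoid list was the only one with 3 or more members above the floor, 6 of 8. None of the 6 was 2-fold apart for the mutant pair or the overexpressor pair, beside 0.960% and 0.992% of all probe sets with 1 gene. A count of 0 is thus not a result about this list. Its medians were -0.39 and -0.10, beside -0.005 and -0.02 over all. For the wild-type pair 1 was higher and 1 lower, with a median of -0.14, beside 9.22% higher, 5.26% lower and a median of 0.05 over all. For the altered-line pair 0 passed 2-fold, beside 13.5%, with a median of 0.18, beside 0.05 over all. UGT72E1 and UGT72E2, which glucosylate monolignols and their aldehydes, were at 1314 (NO) and 1363 (duf761-1) in Nossen and 1247 (Col-0) and 1118 (OE6) in Columbia for UGT72E1 and at 898 (NO) and 609.6 (duf761-1) in Nossen and 1117 (Col-0) and 908 (OE6) in Columbia for UGT72E2. UGT72E1 was among the steadiest members, with all 4 arrays within 0.29 on the log2 scale, as were UGT71C5 (0.29) and UGT71C1 (0.22). Of 16 further phenylpropanoid genes listed by locus, 1 is named here, HCT, an acyltransferase of lignin synthesis, with log2 ratios of -0.04 for the mutant pair, 0.03 for the overexpressor pair and -0.46 for the wild-type pair. The P450 reductases, cytochromes b5 and sucrose synthases listed as partners were not analysed here.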

How the data were processed

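Biotinylated cRNA made from 6 µg of total RNA was hybridised to 4 ATH1 arrays, 1 per genotype, per the labels' protocols. The authors deposited linear intensities, 1 per probe set and array, and the submitters' processing notes name MAS5. Its version and the genome build are not given in the sources used here. Each array, by its values, has a mean of 500.0 after trimming 2% at each end. MAS5 is noisy at low signal and the common mean hides differences in total mRNA. The table holds no detection calls, so a floor was set, and having 1 array per genotype limits the precision.

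Probe sets were named through the platform annotation (13513 with 1 gene, 503 with several, 8730 unnamed here) and symbols updated through a RefSeq gene table (TAIR10.1, 13436 matched), used for names and gene order only. No coordinates or sequences are printed. Signals were floored at the 40th percentile (102.3) and log2 ratios taken for duf761-1 over NO, OE6 over Col-0, Col-0 over NO and OE6 over duf761-1, with a threshold of 2-fold. Shares over all probe sets use those above the floor on at least 1 of the arrays compared. No difference was tested. Members, lists and neighbour runs were chosen with earlier results of these data known. Named members were those 2-fold apart in a comparison, the 5 highest and 5 lowest per family in each altered line, the 3 brightest per family, those with the largest and least spread, and role list members; others named were chosen after their values were seen. Alternatives were median, quantile, loess (span 0.4) and spike-in scaling, floors at the 25th and 60th percentiles, none, a pseudocount, a 3-fold threshold, and filters on probe sets. Python 3.11.15, pandas 2.3.3, numpy 2.4.6 and statsmodels 0.14.6 were used.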

Additional observations from a re-analysis of the deposited data

How the results depend on the processing

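In every called member (16 for Col-0 over NO and 13 for OE6 over duf761-1) the direction was the same under each alternative that gave a ratio. The 2-fold call held under all of them for 8 of the 16 and 6 of the 13, and the rest were lost under 1 or more settings, among them the 60th percentile floor and the pseudocount, which shrink ratios near the floor by construction. Counts of 0 for duf761-1 over NO and OE6 over Col-0 moved only without a floor, to 7 higher and 9 lower and to 4 higher and 7 lower, since values below the floor then enter. The same setting gave 18 higher and 10 lower for Col-0 over NO and 15 and 13 for OE6 over duf761-1. Raising the floor to the 60th percentile gave 6 and 3, and 5 and 2, and a 3-fold threshold gave 5 and 3, and 4 and 2. The UGT median for Col-0 over NO was 0.39 with spike-in scaling, and the P450 median for OE6 over duf761-1 was 0.84 with the floor at the 60th percentile, over 8 genes. Over all probe sets with 1 gene the calls for duf761-1 over NO numbered 53 higher and 18 lower, 121 and 150 under the 25th percentile floor, 26 and 4 at the 60th and 1117 and 1786 with none. Those for OE6 over Col-0 numbered 38 and 39, 100 and 130, 13 and 12, and 1030 and 1377. Those for Col-0 over NO numbered 728 and 415, 1105 and 621, 370 and 250, and 2351 and 1712, and those for OE6 over duf761-1 620 and 424, 977 and 541, 301 and 271, and 2490 and 1587. In the same order of comparisons the pseudocount gave 28 and 3, 19 and 11, 490 and 273, and 413 and 280, and a 3-fold threshold gave 10 and 0, 6 and 5, 249 and 130, and 217 and 137. Spike-in scaling gave 1491 and 182 for Col-0 over NO and 1024 and 255 for OE6 over duf761-1. Median scaling gave 553 and 570, and 465 and 628, so the excess of higher calls turned to one of lower calls, and moved the median of all probe sets by -0.15 for Col-0 over NO and -0.17 for OE6 over duf761-1. Keeping only probe sets above the floor on all 4 arrays was chosen after seeing the data. The filters on cross-hybridising and on repeated probe sets could not change the members' values. No member carries a cross-hybridisation suffix and each member gene has 1 probe set. No paired analysis was possible because each genotype has 1 array.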
